A study of Mus musculus with 3 samples.

Results

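The genes described here are the cytosolic tRNA synthetases and the amino acid stress genes of mouse ESCs. They are 39 genes of the 23953 in the deposited tables, and all 39 were found in both tables. They were chosen by symbol and not by a cut on their levels, but with earlier results of these data known. They were set apart as 19 cytosolic tRNA synthetases, 6 enzymes of serine and one-carbon metabolism, 3 enzymes of asparagine and proline synthesis, 6 ATF4-CHOP factors and 5 other ATF4 targets. RNA-seq was performed on E14 mouse ESCs, a line grown with LIF, in 3 libraries with 1 library for each condition. In these lines, loxP sites flank a part of the *Oct4* distal enhancer (DE), and the cells carry a tamoxifen inducible Cre and a doxycycline inducible transgenic mouse *Oct4*. The Tam-labelled library came from cells given 4-OH tamoxifen for 48 h, which activates the Cre that is meant to excise the floxed enhancer sequence. The study describes the line as loxP inserted on both alleles, and how complete the excision was in this library was not tested here. Cells of the DoxTam-labelled library received doxycycline as well over the same 48 h, which switches the transgene on. The third library is labelled WT, and the labels list both constructs for it too, so it was not settled whether it is the parental line or floxed cells without treatment. The engineered lines were grown from clones, and the sources used here do not give how many clones a library holds.

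Aminoacyl-tRNA synthetases join each amino acid to its tRNA, and a shortage of an amino acid leaves tRNAs uncharged. Uncharged tRNA activates the kinase GCN2, which phosphorylates eIF2 alpha, and other kinases do the same under endoplasmic reticulum stress, heme shortage or viral RNA. General translation then slows while the mRNA of the transcription factor ATF4 is translated better, and ATF4 raises genes of amino acid synthesis and uptake, many tRNA synthetases, and CHOP (*Ddit3*), TRIB3 and CHAC1. Since ATF4 is controlled largely at translation, its mRNA level and its activity need not move together. Mouse ESCs depend on an active one-carbon metabolism, fed by serine and by threonine.

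Levels are in FPKM, which scales the fragments of a gene to transcript length and to sequencing depth, so that levels of different genes are compared per length. Folds are log2 ratios of FPKM + 1, a scale that understates differences of weakly expressed genes. A gene was taken as measured where either library of a pair reached 1 FPKM, and as higher or lower where the libraries differed by at least 1.5-fold (0.58 on the log2 scale). As every condition has a single library, there is no spread between replicates to set a difference against. Each fold describes a pair of libraries and no p-value is given.

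By an estimate from the lowest levels, the WT-labelled library was the deepest, and the Tam-labelled and DoxTam-labelled libraries had 0.489 and 0.598 of its depth. *Pou5f1*, the gene of *Oct4*, had 664 FPKM in WT, 529 FPKM in the Tam-labelled library and 458 FPKM in the DoxTam-labelled library. The Tam-labelled level was 79.7% of WT, so *Pou5f1* was not lost in the library labelled for the deletion. As deposited, the library labelled for transgenic *Oct4* was the lowest, which goes against its label. The order of the treated libraries depends on the scaling, as FPKM summed over all genes was 957648 in Tam and 824098 in DoxTam. With the trend of folds with GC content removed, the *Pou5f1* fold of DoxTam against Tam was -0.11, against -0.21 without it. For these reasons every direction below is between libraries named by their labels only. Reads of the transgene can count toward *Pou5f1*, so the value may be a sum of both copies. None of the 8 ESC markers differed by 1.5-fold in any comparison, with *Sox2* at 289, 268 and 268 FPKM and *Nanog* at 186, 228 and 202 FPKM in WT, Tam and DoxTam. The 7 trophectoderm markers summed to 20.7, 29.3 and 24.7 FPKM in WT, Tam and DoxTam. In Tam against WT 5 were measured, with folds above 0, but *Cdx2* and *Gata3* reached 1 FPKM in Tam alone, which fixes their sign. About 17 and 37 fragments lie behind the WT and Tam levels of *Cdx2* and 4 and 33 behind those of *Gata3*, with counting SDs of 0.421 and 0.786. A counting SD is that of the log2 ratio without the added 1 FPKM, so for weakly expressed genes it is larger than that of the fold. *Hand1*, left out by the filter, went the other way (0.995, 0.873 and 0.963 FPKM), and *Elf5* was at 0.130, 0.280 and 0.0614 FPKM. *Cdx2* (0.639, 2.82 and 0.128 FPKM) and *Gata3* (0.0980, 1.77 and 0.213 FPKM) were higher in Tam by 1.5-fold, *Eomes* (2.91, 4.08 and 5.43 FPKM) was higher in DoxTam, and the keratin genes *Krt18* (10.8, 13.5 and 10.6 FPKM) and *Krt8* (5.11, 5.98 and 7.25 FPKM) were the most abundant, and the 6 markers of primitive endoderm did not pass 1.31 FPKM. Of the 7 fibroblast markers 6 stayed below 1 FPKM in the 3 libraries and *Thy1* was at 4.52, 2.27 and 2.63 FPKM. What part other cell types have in the members' folds was not tested, and in bulk RNA fewer cells of a type and less RNA per cell cannot be told apart.

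Promoter sequences show which members carry the letters that ATF4 is known to bind together with C/EBP factors. RefSeq promoters (mouse build GRCm38.p6, 250 bases before to 50 after a start) were matched for 33 of the 39 genes. *Cars*, *Hars*, *Lars*, *Nars*, *Rars* and *Wars* were not matched. The motif TGATGNAA, searched on both strands, was found for 11 of the 33 matched members (33.3%), against 3.97% of 32851 promoters and 4.51% of the 27025 genes. It was found for 5 of 13 synthetases, 2 of 3 genes of asparagine and proline synthesis, 2 of 6 ATF4-CHOP factors, 2 of 5 other ATF4 targets and 0 of 6 serine and one-carbon enzymes. Many members are textbook ATF4 targets and were listed as such, so this share describes the choice of genes. The stretches below are shown since these genes recur in the results, and each reads 5′ to 3′ on the strand of its gene with the motif in capitals, as its reverse complement where it lies on the opposite strand. Positions are counted from the transcription start.
*Asns* (chr6:7693205-7693252, minus strand, motif at -23 to -16): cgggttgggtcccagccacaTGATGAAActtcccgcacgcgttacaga
*Yars* (chr4:129189886-129189932, plus strand, motif at 4 to 11): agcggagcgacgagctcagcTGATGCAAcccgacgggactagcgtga
*Trib3* (chr2:152344031-152344066, minus strand, motif at 15 to 22): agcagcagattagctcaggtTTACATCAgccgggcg
*Aars* (chr8:111033710-111033757, plus strand, motif at -112 to -105): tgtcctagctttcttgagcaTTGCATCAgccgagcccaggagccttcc
*Gars* (chr6:55037951-55037998, plus strand, motif at -30 to -23): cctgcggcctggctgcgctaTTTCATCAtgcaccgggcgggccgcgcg
*Chac1* (chr2:119351029-119351076, plus strand, motif at -193 to -186): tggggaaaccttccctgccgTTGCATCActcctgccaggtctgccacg

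The same letters were also found for *Iars*, *Tars*, *Pycr1*, *Atf3* and *Vldlr*, and *Aars* held a second copy at 10 to 17. An E-box, CACGTG, was found for 6 of 33 members, *Aars*, *Farsb*, *Iars*, *Tars*, *Aldh18a1* and *Gdf15*, against 7.15% of all promoters and 8.09% of all genes. The endoplasmic reticulum stress element was also searched, and it was found for 0 of 33 members, in 0.119% of all promoters and for 0.137% of all genes. In the windows of *Phgdh* and *Mthfd2*, the members with the lowest folds of the Tam-labelled library against WT, none of the 3 motifs was found. Their 250 bases before the start are printed in lower case throughout, as they hold no motif to mark.
*Phgdh* (chr3:98339970-98340219, minus strand): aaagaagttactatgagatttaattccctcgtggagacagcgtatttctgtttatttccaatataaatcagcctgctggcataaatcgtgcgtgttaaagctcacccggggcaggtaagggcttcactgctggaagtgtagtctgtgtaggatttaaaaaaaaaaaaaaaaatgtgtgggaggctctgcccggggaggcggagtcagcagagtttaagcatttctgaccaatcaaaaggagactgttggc
*Mthfd2* (chr6:83317605-83317854, minus strand): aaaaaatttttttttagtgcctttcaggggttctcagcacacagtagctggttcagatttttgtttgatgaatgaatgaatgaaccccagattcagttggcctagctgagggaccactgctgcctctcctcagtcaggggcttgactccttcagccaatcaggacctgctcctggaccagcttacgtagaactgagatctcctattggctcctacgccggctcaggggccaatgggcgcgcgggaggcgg

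Most of the 39 genes were well expressed, and 1 gene, *Vldlr*, stayed below 1 FPKM in every library (0.481, 0.651 and 0.712 FPKM in WT, Tam and DoxTam), which leaves 38 measured genes. The highest WT levels were those of *Gars* (179 FPKM), *Asns* (166 FPKM) and *Nars* (161 FPKM). At the other end stood *Vldlr*, *Atf3* at 1.68 FPKM and *Pycr1* at 2.78 FPKM. The plot of levels shows the spread over the groups: 18 of the 19 synthetases lay between 39.8 and 179 FPKM in WT and *Wars* lay below them, whereas the ATF4-CHOP factors ran from 1.68 FPKM for *Atf3* to 144 FPKM for *Atf4*.

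**Figure D1:**
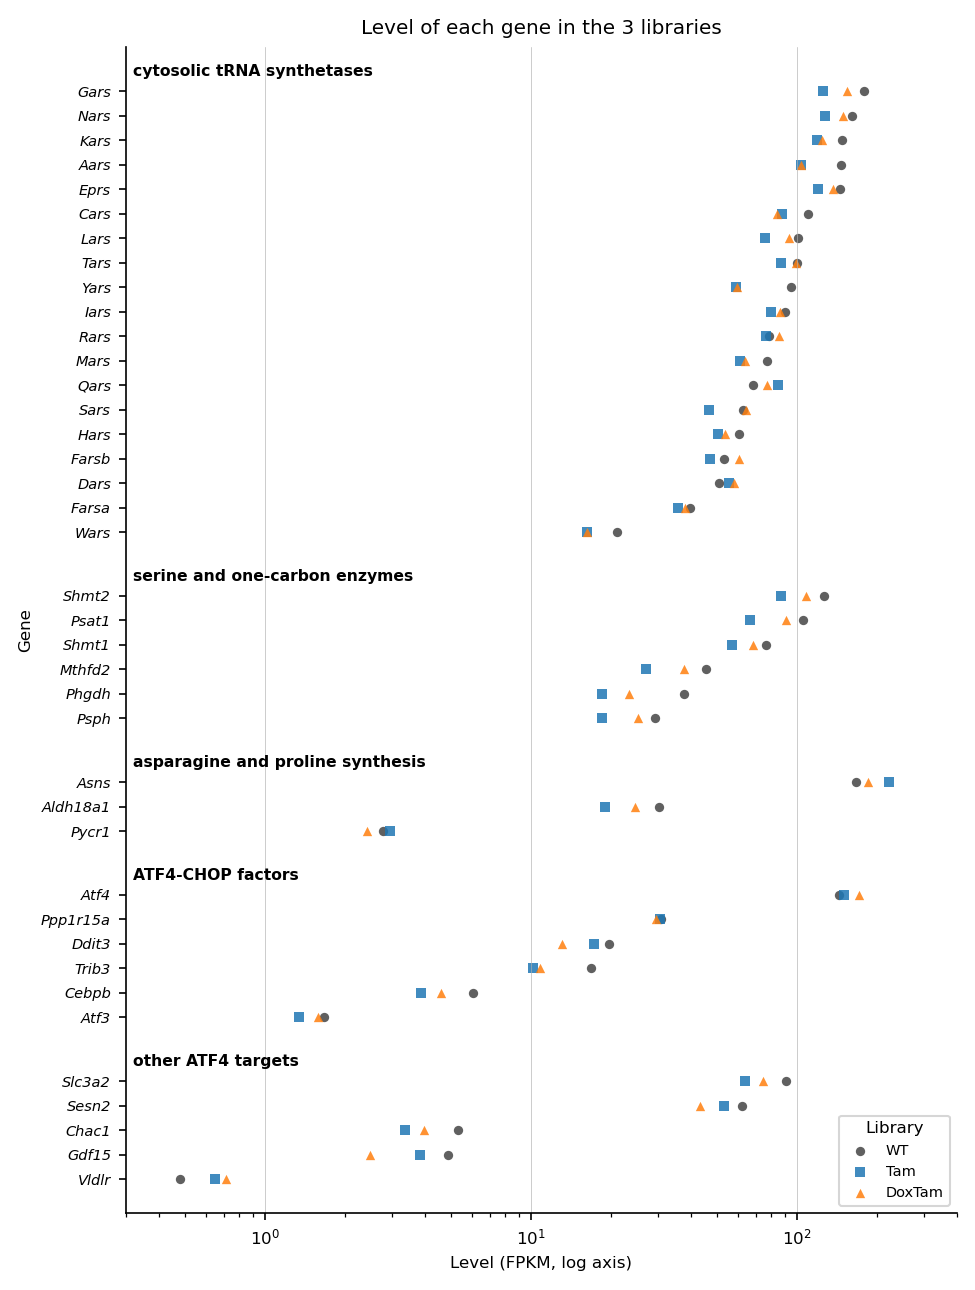
Level of each of the 39 genes in FPKM (x axis, log scale), by group and in the order of WT; circles are WT, squares the Tam-labelled library and triangles the DoxTam-labelled library, 1 library each and no error bars. The squares of the 6 serine and one-carbon enzymes all lie left of the triangles, which lie left of the WT circles in the levels as deposited. After rescaling to the same total the median fold of DoxTam against WT for this group is 0.14, beside 0.319 over all genes.

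Against WT, members were lower more often than higher in the Tam-labelled library. There 7 of 38 measured members were lower by 1.5-fold, where 3.59% of the 12705 measured genes were, and 0 were higher, where 6.98% of all genes were. At 5 FPKM or more, the range of nearly all members, 3.47% of genes were lower. The 7 genes were *Phgdh*, *Mthfd2*, *Psat1*, *Psph*, *Yars*, *Trib3* and *Aldh18a1*. Any fold below 0 was seen for 33 of 38 members, against 47.3% of all genes, and the median log2 fold was -0.33 over the members and 0.02 over all genes.

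In the DoxTam-labelled library, fewer members passed the limit. There 4 of 38 were lower than in WT, *Yars*, *Phgdh*, *Trib3* and *Gdf15*, where 5.78% of the 12364 measured genes were lower, and 0 were higher, where 4.12% of all genes were. Folds below 0 numbered 31 of 38, against 50.3% of all genes, with a median of -0.21 over the members and -0.0028 over all genes. Signs in this comparison depend on whether small RNA genes enter the scaling. Rescaling each library to the same total with them raised the median fold of all genes by 0.321, to 0.319 (by 0.127 for Tam). After that step 0 members were lower and 1 was higher. With small RNA genes left out, the totals were 394396 FPKM in WT and 394339 FPKM in DoxTam, and after rescaling to them 4 members were lower and 0 higher. The share of all genes past the limit was not computed after either rescaling, so these counts are not set against other genes. Between the treated libraries, DoxTam against Tam, 0 members were lower, where 5.73% of 12628 genes were, and 0 were higher, where 2.09% were. In that comparison 29 of 38 members had a fold above 0, against 47% of all genes. These 3 comparisons share libraries pairwise, so a low value in the Tam-labelled library enters more than 1 of them, and their values are given side by side.

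**Figure D2:**
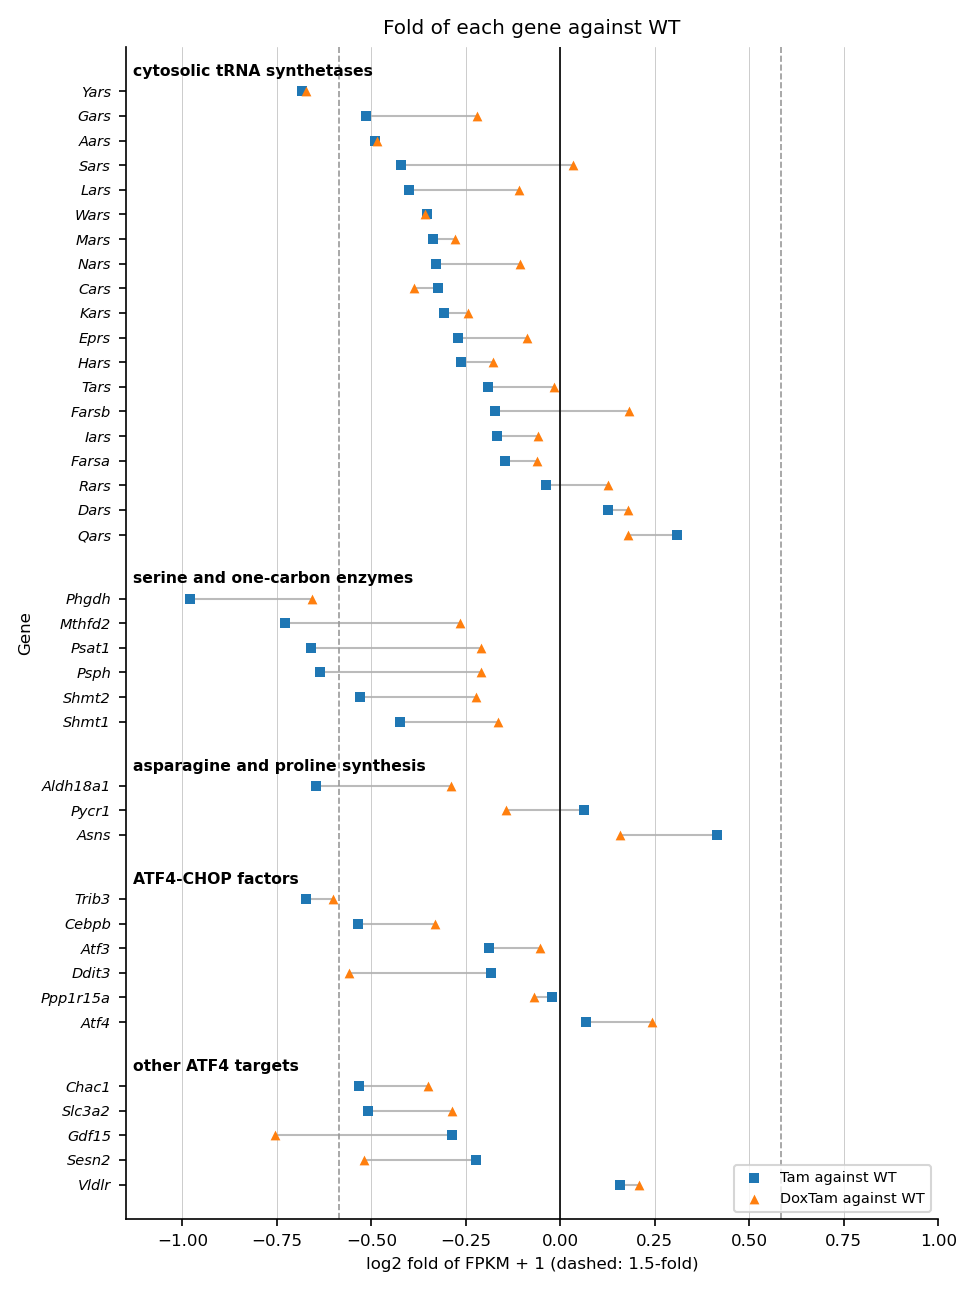
Log2 fold of FPKM + 1 against WT for each of the 39 genes (x axis), by group; squares are the Tam-labelled library, triangles the DoxTam-labelled library, each a single pair of libraries without error bars, and dashed lines mark 1.5-fold. No gene lies past the right dashed line, and 7 squares and 4 triangles lie past the left one. After rescaling to the same total these are 2 and 0, and the share of all genes was not computed at that scaling.

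The 19 cytosolic tRNA synthetases were shifted down in small steps in the Tam-labelled library, with a median log2 fold of -0.31 and 17 of 19 folds below 0, but 1 gene, *Yars*, was lower by 1.5-fold. *Yars*, which charges tRNA with tyrosine, had 95.2 FPKM in WT, 58.9 FPKM in the Tam-labelled library and 59.3 FPKM in the DoxTam-labelled library. The treated libraries stood at 61.9% and 62.3% of WT, with log2 folds of -0.68 and -0.67, and differed from each other by less than the counting error. About 3290, 995 and 1227 fragments lie behind these levels, and counting error alone gives an SD of 0.0522 for the first fold and 0.0483 for the other. Its locus (chr4:128867038-128938648, mm9) is shared in the tables with the gene model *C77080*, whose reads may be divided from those of *Yars* with some error.

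Next in the Tam-labelled library were *Gars* and *Aars*, the glycyl and alanyl synthetases. *Gars* was at 179, 125 and 154 FPKM in WT, Tam and DoxTam, with log2 folds against WT of -0.52 and -0.22. *Aars* was at 146, 104 and 104 FPKM, with folds of -0.49 and -0.48. The DoxTam value thus stood between the other libraries for *Gars* and at the Tam value for *Aars*. *Sars*, the seryl synthetase, had 63.0, 46.8 and 64.5 FPKM, so that its fold was -0.42 for Tam and 0.03 for DoxTam, and 0.45 between the treated libraries, the highest of the synthetases.

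The 2 synthetases above 0 in the Tam-labelled library were *Qars*, the glutaminyl enzyme, with 68.2 FPKM in WT, 84.8 FPKM in Tam and 77.4 FPKM in DoxTam, and *Dars*, the aspartyl enzyme, with 51.0, 55.8 and 57.8 FPKM. *Qars* had the highest fold of the group for Tam (0.31) and the lowest of DoxTam against Tam (-0.13). In the DoxTam-labelled library the group's median fold against WT was -0.11 with 14 of 19 folds below 0. It was 0.25 after rescaling to the same total, beside 0.319 over all genes. *Farsb*, a chain of the phenylalanyl enzyme, had the highest DoxTam fold of the group at 0.18 (53.3, 47.1 and 60.6 FPKM). Its deposited locus is the same as that of *Sgpp2*, so their levels may not be fully separate. Against Tam, 16 of 19 folds were above 0, with a median of 0.08.

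Serine and one-carbon enzymes were the group with the lowest median in the Tam-labelled library. Its 6 genes had a median log2 fold of -0.65 against WT, all 6 were below 0 and 4 were lower by 1.5-fold. In the DoxTam-labelled library all 6 folds were again below 0, but the median was -0.22 and 1 gene was lower. After rescaling to the same total this median was 0.14, beside 0.319 over all genes. Between the treated libraries all 6 were above 0, from 0.26 for *Shmt1* to 0.46 for *Mthfd2*, with a median of 0.37, and none passed 1.5-fold.

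*Phgdh*, the first enzyme of serine synthesis from glycolysis, had 37.5 FPKM in WT, 18.5 FPKM in the Tam-labelled library and 23.5 FPKM in the DoxTam-labelled library. Its level in Tam was 49.4% of WT and in DoxTam 62.5%, with log2 folds of -0.98 and -0.66, the lowest member for Tam. About 844, 204 and 316 fragments lie behind the levels, with a counting SD of 0.113 for the Tam fold. Its locus, exons and introns together, is chr3:98117093-98143892 (mm9).

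The next steps of serine synthesis are made by *Psat1*, the aminotransferase, and *Psph*, the phosphatase. *Psat1* (chr19:15979612-15999549, mm9) was at 106 FPKM in WT, 66.6 FPKM in Tam and 91.3 FPKM in DoxTam, with folds against WT of -0.66 and -0.21. *Psph* (chr5:130271433-130293129, mm9) was at 29.4, 18.6 and 25.3 FPKM, with folds of -0.64 and -0.21. For both genes the Tam-labelled library was the low one, and DoxTam lay nearer to WT than to Tam.

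*Mthfd2*, the mitochondrial enzyme that oxidises the one-carbon unit on folate, was at 45.6, 27.1 and 37.7 FPKM in WT, Tam and DoxTam. Its locus is chr6:83255697-83267598 (mm9). The Tam level was 59.5% of WT, with a log2 fold of -0.73, and the DoxTam fold was -0.27. *Shmt2*, which moves the one-carbon unit from serine to folate in mitochondria, was at 127, 87.5 and 109 FPKM, and its cytosolic counterpart *Shmt1* at 76.7, 56.9 and 68.3 FPKM. Both stayed within 1.5-fold, with Tam folds of -0.53 and -0.42 and DoxTam folds of -0.22 and -0.16. The locus of *Shmt2* in the tables also holds *Ndufa4l2*.

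The genes of asparagine and proline synthesis had no common direction. *Asns*, the asparagine synthetase and a standard ATF4 target, had 166 FPKM in WT, 222 FPKM in the Tam-labelled library and 186 FPKM in the DoxTam-labelled library, with folds of 0.42 and 0.16 (chr6:7625170-7643182, mm9). It had the highest fold of all measured members for Tam, on the other side of 0 from the serine enzymes. *Aldh18a1*, which makes the precursor of proline (chr19:40624746-40662953, mm9), was at 30.3, 19.0 and 24.6 FPKM and was lower in Tam (-0.65) but within the limit in DoxTam (-0.29). *Pycr1*, which completes proline synthesis in mitochondria, was low at 2.78, 2.95 and 2.42 FPKM, with folds of 0.06 and -0.14. The counting SD of its Tam ratio without the added 1 FPKM was 0.252. Medians of the 3 genes were 0.06 for Tam, -0.14 for DoxTam and -0.21 for DoxTam against Tam. After rescaling to the same total the median of DoxTam against WT was 0.12, beside 0.319 over all genes.

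Among the 6 ATF4-CHOP factors, 1 was lower in each treated library and the median folds against WT were -0.19 for Tam and -0.20 for DoxTam. After rescaling to the same total the DoxTam median was 0.0764, beside 0.319 over all genes. *Atf4* itself had 144 FPKM in WT, 151 FPKM in the Tam-labelled library and 171 FPKM in the DoxTam-labelled library, with folds of 0.07 and 0.24, the highest of its group in both. *Trib3*, a pseudokinase that binds ATF4 and CHOP (chr2:152163160-152169796, mm9), was at 16.9, 10.2 and 10.8 FPKM and had folds of -0.67 and -0.60, of which the first came to -0.53 and the second to -0.34 with the GC trend removed. Between the treated libraries its fold was 0.07, less than the counting SD of 0.175.

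*Ddit3*, the gene of CHOP, had 19.7 FPKM in WT, 17.2 FPKM in Tam and 13.1 FPKM in DoxTam, with folds of -0.18 and -0.56, and its fold of DoxTam against Tam (-0.38) was the lowest of the group. Its deposited locus is the same as that of *Mars* (chr10:126727848-126748842, mm9), so the levels of these overlapping genes may not be fully separate. *Cebpb*, a C/EBP partner of these factors, was at 6.05, 3.87 and 4.60 FPKM, with folds of -0.53 and -0.33 and counting SDs of 0.284 and 0.248. *Ppp1r15a*, which encodes the phosphatase subunit GADD34 that reverses eIF2 alpha phosphorylation, was level at 31.0, 30.5 and 29.4 FPKM. *Atf3* rested on about 40, 16 and 22 fragments, at 1.68, 1.35 and 1.58 FPKM.

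Of the 5 other ATF4 targets, 4 were measured and all 4 were below 0 against WT in both treated libraries, with medians of -0.40 for Tam and -0.43 for DoxTam. These medians were nearer to 0, at -0.23 and -0.22, with the trend of folds with GC content removed. The DoxTam median was -0.11 after rescaling to the same total, beside 0.319 over all genes. *Gdf15*, a secreted stress cytokine (chr8:73153292-73155534, mm9), had 4.89 FPKM in WT, 3.83 FPKM in the Tam-labelled library and 2.49 FPKM in the DoxTam-labelled library. Its DoxTam fold of -0.76 was the lowest of the members in that comparison, but it rests on about 90 and 27 fragments with a counting SD of 0.315. *Sesn2*, a leucine sensor that restrains mTORC1, was at 62.2, 53.1 and 43.1 FPKM, with folds of -0.22 and -0.52, so that DoxTam was the low library here as for *Ddit3* and *Gdf15*. *Slc3a2*, the heavy chain of large neutral amino acid transporters, was at 91.0, 63.7 and 74.5 FPKM (-0.51 and -0.29), and *Chac1*, which degrades glutathione, at 5.33, 3.38 and 3.96 FPKM (-0.53 and -0.35, with counting SDs of 0.291 and 0.255).

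The other genes of the pathway were read beside the same shares of all genes, 6.98% higher and 3.59% lower in Tam and 4.12% higher and 5.78% lower in DoxTam. For DoxTam against Tam the shares were 2.09% higher and 5.73% lower. Of the 16 eIF2 alpha kinases, eIF2 subunits, eIF2B subunits and phosphatases, 2 were higher in the Tam-labelled library and 0 lower. *Eif2b5*, the catalytic subunit of the eIF2 exchange factor, was at 113 FPKM in WT, 184 FPKM in Tam and 109 FPKM in DoxTam, with a Tam fold of 0.70 and a fold of -0.75 between the treated libraries. *Impact*, which competes with GCN2 for GCN1, was at 39.05, 63.4 and 61.0 FPKM, with folds of 0.68 and 0.63. *Gcn1l1*, the gene of GCN1, was at 50.9, 40.1 and 32.9 FPKM and was the 1 gene of this list lower in DoxTam (-0.61). The GCN2 gene *Eif2ak4* stayed level at 9.34, 10.1 and 8.94 FPKM.

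A list of 28 further ATF4 target genes went both ways in Tam, with 3 of 25 measured genes higher, 2 lower and a median fold of -0.14. *Slc7a5*, the light chain that pairs with *Slc3a2* to import leucine, was at 75.6, 45.4 and 54.4 FPKM, with folds of -0.72 and -0.47. The transcription factor gene *Jdp2* was at 11.3, 5.74 and 8.19 FPKM (-0.86 for Tam). On the other side stood the neutral amino acid transporter gene *Slc38a2*, at 64.8, 104 and 94.1 FPKM, with folds of 0.67 and 0.53, and *Stc2* at 5.02, 8.58 and 8.52 FPKM, with folds of 0.67 and 0.66. The third was *Tslp* (0.380, 1.203 and 0.234 FPKM), with a Tam fold of 0.67. It rests on about 5, 8 and 2 fragments, with a counting SD of 0.818 for the Tam ratio without the added 1 FPKM. *Tslp* reached 1 FPKM in Tam alone, so the filter fixed its direction in Tam against WT and in DoxTam against Tam.

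In DoxTam 1 of 24 measured genes of that list was higher, *Stc2*, and 2 were lower, *Txnip* (163, 133 and 99.1 FPKM, a fold of -0.72) and the p53 target *Bbc3* (38.2, 28.7 and 24.1 FPKM, a fold of -0.64). Against Tam 2 of 25 were lower in DoxTam, where 5.73% of all genes were. They were *Tslp* and *Ddit4*, an mTORC1 inhibitor gene at 25.3, 29.3 and 18.9 FPKM (-0.61 in that comparison). None of the 20 genes of the endoplasmic reticulum unfolded protein response differed by 1.5-fold in any comparison, with medians of 0.03, 0.01 and -0.07. Its chaperone gene *Hspa5* was at 146, 153 and 134 FPKM.

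Mitochondrial tRNA synthetases, separate genes in most cases, had 0 of 17 genes past 1.5-fold in Tam, with a median of -0.21 and 15 of 17 folds below 0. Their DoxTam median was -0.24 with 14 of 17 folds below 0, where the cytosolic group had -0.11. Over all genes 47.3% of folds were below 0 in Tam and 50.3% in DoxTam. In DoxTam 2 of 17 were lower, *Lars2* with 2461, 2131 and 1339 FPKM (-0.88) and *Vars2* with 9.76, 7.80 and 6.01 FPKM (-0.62), and *Lars2* was also lower in DoxTam than in Tam (-0.67). The 3 scaffold proteins of the cytosolic synthetase complex stayed within the limit, at medians of 0.09 and 0.14. The folate, glycine and methionine cycle had a median of 0.14 for Tam, with 12 of 18 folds above 0, and of -0.02 for DoxTam. In that list 1 of 18 genes was higher in Tam, *Gcsh* of the glycine cleavage system (44.9, 69.7 and 48.3 FPKM, 0.62), and 1 in DoxTam, the mitochondrial folate carrier gene *Slc25a32* (4.03, 4.49 and 7.06 FPKM, 0.68). *Tdh*, through which mouse ESCs break down threonine, was at 182, 204 and 188 FPKM. Of 10 proline and aspartate partners 0 passed in Tam. *Pycrl* was lower in DoxTam than in WT (15.4, 9.98 and 9.21 FPKM, -0.68), while the glutamine synthetase gene *Glul* was higher in DoxTam than in Tam (109, 79.9 and 126 FPKM, 0.65).

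**Figure D3:**
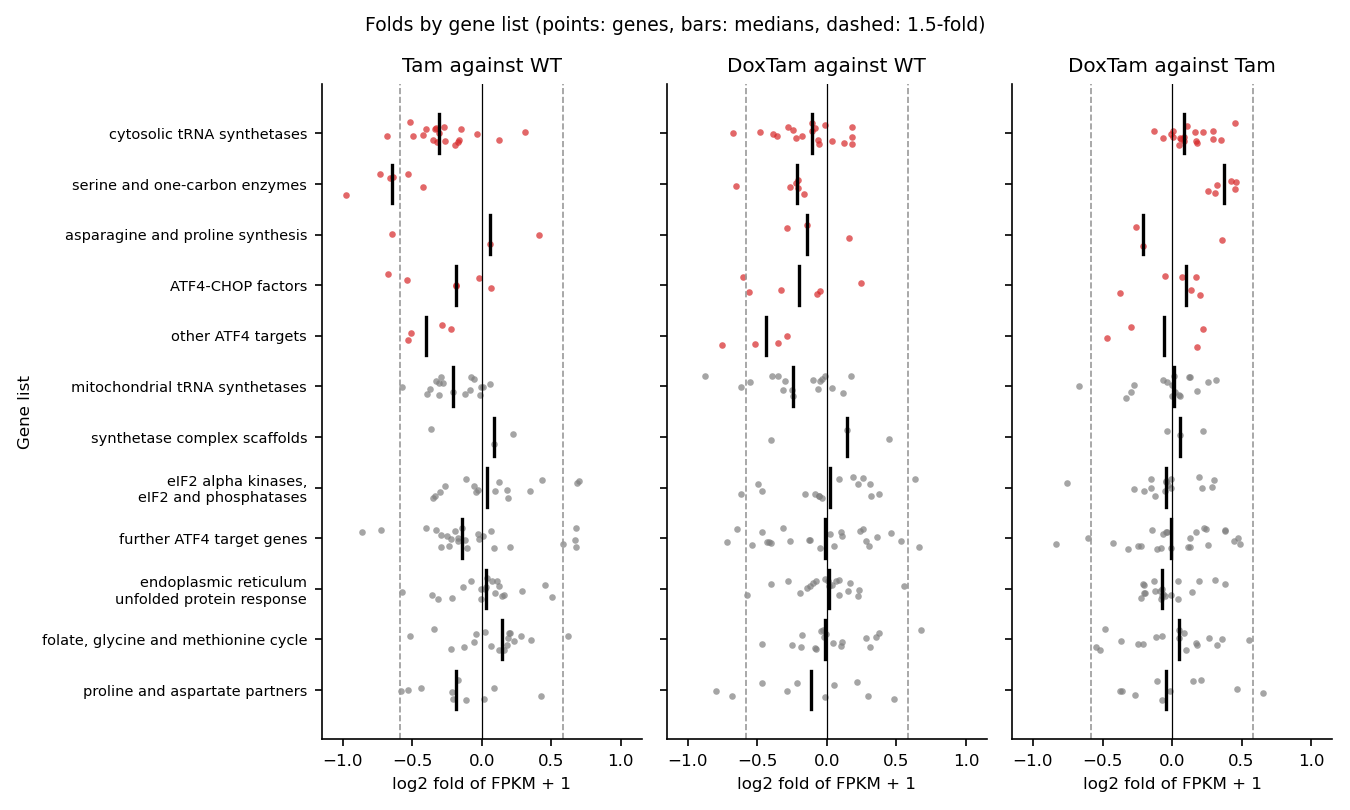
Log2 fold of FPKM + 1 (x axis) of each measured gene by list, in the 3 pairs of libraries; points are genes (red for the 5 groups of members, grey for the other lists of the pathway), bars are medians and dashed lines mark 1.5-fold. The bar of the serine and one-carbon enzymes is at -0.65 for Tam against WT and at 0.37 for DoxTam against Tam, while the 20 genes of the unfolded protein response stay between the dashed lines.

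Folds followed the GC content of the transcripts in these libraries, and the members differ in GC content. Spearman's correlation of fold with GC content, across genes that are not independent replicates and share the same libraries, was -0.389 for Tam (11292 genes) and -0.611 for DoxTam (11028 genes). Median GC content was 50.3% for the synthetases, 50.8% for the serine and one-carbon enzymes, 55.6% for the ATF4-CHOP factors and 57.4% for the other ATF4 targets, beside 50.7% over all genes. When the trend was removed, 6 members were lower in Tam, all of the 7 but *Trib3* (-0.53), where 2.29% of all genes were, and 1 was lower in DoxTam, *Yars* at -0.61, where 2.57% were.

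The group medians moved unevenly with that step. Serine and one-carbon enzymes had -0.66 for Tam, -0.27 for DoxTam and 0.42 between the treated libraries, against -0.65, -0.22 and 0.37 without it. The synthetases had -0.29, -0.19 and 0.09, so that their DoxTam median lay further from 0 than the -0.11 without it, and 17 of 19 folds were below 0 in place of 14. For DoxTam *Phgdh* came to -0.42, *Trib3* to -0.34 and *Gdf15* to -0.42, all inside the limit. The median of the ATF4-CHOP factors for DoxTam changed its sign, to 0.04.

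Several differences in the other lists of the pathway also came inside the limit with the trend removed. In Tam these were *Impact* (0.48), *Slc38a2* (0.53), *Tslp* (0.42) and *Gcsh* (0.55). In DoxTam they were *Impact* (0.30), *Gcn1l1* (-0.34), *Bbc3* (-0.23), *Vars2* (-0.35), *Pycrl* (-0.46) and *Slc25a32* (0.34), and in DoxTam against Tam *Ddit4* (-0.51). *Eif2b5*, *Stc2*, *Slc7a5* and *Jdp2* stayed past 1.5-fold in Tam, *Stc2*, *Txnip* and *Lars2* in DoxTam, and *Eif2b5*, *Lars2*, *Tslp* and *Glul* in DoxTam against Tam.

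**Figure D4:**
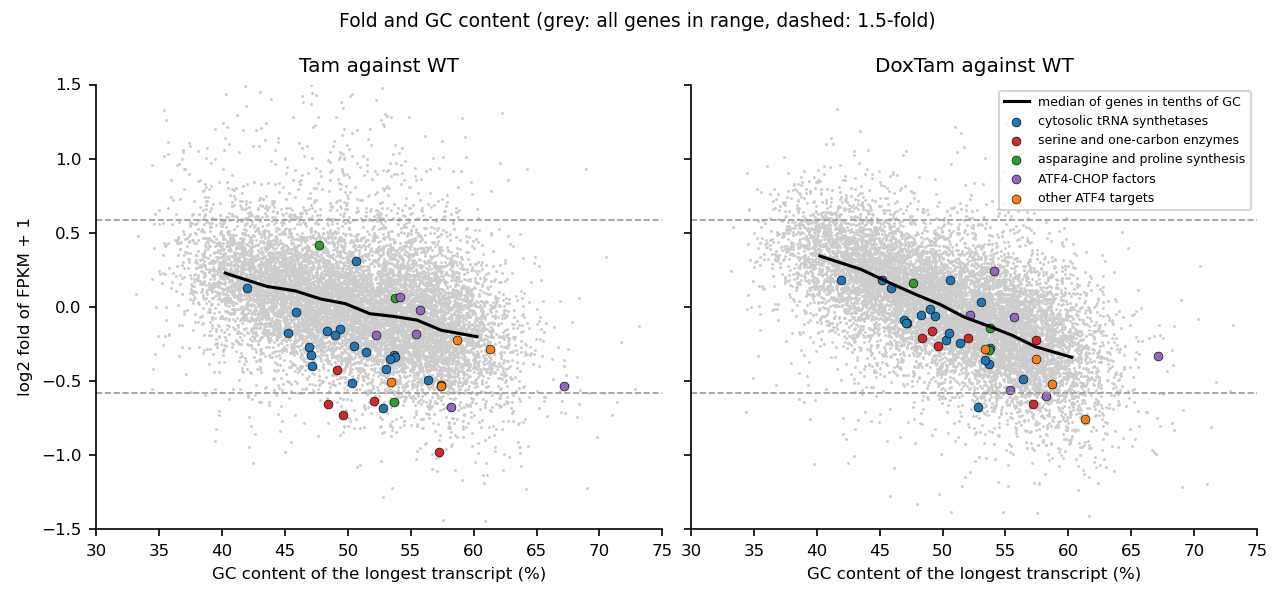
Log2 fold of FPKM + 1 against WT (y axis) by GC content of the longest protein-coding transcript in percent (x axis), for Tam (left) and DoxTam (right); grey points are genes, coloured points the measured members by group, the black line joins medians of equal-sized bins of genes by GC content and dashed lines mark 1.5-fold. The 6 serine and one-carbon enzymes lie below the black line for Tam, and *Gdf15*, *Trib3* and *Phgdh* for DoxTam lie where the line itself is below 0.

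Members with and without TGATGNAA had similar medians. For Tam, the 10 measured members with the motif had a median of -0.34 with 2 lower, *Yars* and *Trib3*, and the 22 without it a median of -0.32 with 5 lower. For DoxTam the medians were -0.18 and -0.22. *Asns*, with the motif printed above, had the highest Tam fold and *Yars* the lowest of the members that hold it.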

How the data were processed

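Stranded RNA-seq of 3 libraries (WT, Tam, DoxTam) was taken from 2 deposited tables, each comparing a treated library with WT. The deposited levels are FPKM. By the submitters' processing notes the authors used TopHat and Bowtie on mm9 (versions not given in the sources used here) and then Cufflinks 2.0.0. Columns of the authors' own comparisons (log2 ratio, test statistic, p-value, q-value, significance) were not used. Of the gene names, 27 differed between tables, and WT levels of 2 genes differed by over 1%.

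FPKM values were compared as deposited, as log2((FPKM + 1)/(FPKM + 1)), for genes that reached 1 FPKM in either library of the pair, with a limit of 1.5-fold and no test, since each condition has 1 library. The fold step alone was tested on simulated data, with 2-fold changes planted in genes at 5 FPKM or more. GC removal, the fragment estimate and the promoter search were not tested in this way. Fragments were estimated from the FPKM of a single fragment in the genes of lowest level, so they and the counting SDs are approximate and cover counting error only. The counting SDs are those of log2 ratios without the added 1 FPKM, which are not on the scale of the folds for weakly expressed genes. Members and lists were chosen with earlier results of these data known. Named genes are every member past 1.5-fold, the 3 highest and 3 lowest in WT, the extremes of each group and comparison, and up to 3 genes in each direction past 1.5-fold per pathway list, and other members were added for completeness. A result that this rule takes from the pathway lists is not reported here. GC content came from the longest protein-coding transcript in GENCODE for the same build, and its trend was removed with lowess (span 0.2). RefSeq promoters are of another build than the tables and were matched by symbol (*Mars* by a synonym), and members are described in this text by the symbols of the tables. Alternatives were pseudocounts of 0.1 and 5 FPKM, no filter or one at 5 FPKM, centring, rescaling to the same total with and without 1201 small RNA genes, GC removal and 2-fold. Python 3.11.15, pandas 2.3.3, SciPy 1.17.1 and statsmodels 0.14.6 were used.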

Additional observations from a re-analysis of the deposited data

How the results depend on the processing

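No paired analysis was possible because each condition has 1 library, and for the same reason no replicate could be left out. Centring on the median fold and rescaling without small RNA genes changed none of the member counts and group medians in direction or side of the limit. Members lower in Tam against WT numbered 4 where 5 FPKM was the pseudocount, 2 after rescaling to the same total and 0 at 2-fold. Those lower in DoxTam numbered 1, 0 and 0, and 1 with the GC trend removed, where 2.57% of all genes were lower. For the other pseudocounts, rescaling and 2-fold, the share of all genes past the limit was not computed. Member counts at those settings therefore do not show whether members differed from other genes. *Phgdh* and *Mthfd2* in Tam stayed past 1.5-fold under all 8 alternatives other than 2-fold (-1.03 to -0.84 and -0.78 to -0.59). *Yars* and *Psat1* in Tam, and *Yars* in DoxTam, were inside the limit after rescaling alone. *Psph* and *Aldh18a1* in Tam were inside it after rescaling and with a pseudocount of 5 FPKM, and *Trib3* in Tam, and *Phgdh*, *Trib3* and *Gdf15* in DoxTam, under both of these and with the GC trend removed. Rescaling moved the median fold of all genes by 0.127 for Tam, 0.321 for DoxTam and 0.195 for DoxTam against Tam, so its values are read relative to these shifts. It gave 1 member higher in DoxTam against WT and 4 higher in DoxTam against Tam. Its medians were -0.51 for the serine and one-carbon enzymes in Tam (-0.65 at 2-fold, inside that limit) and, in DoxTam against WT, 0.25 for the synthetases, 0.14 for the serine and one-carbon enzymes, 0.12 for asparagine and proline synthesis and 0.0764 for the ATF4-CHOP factors (0.0446 with the GC trend removed), all with a changed sign. The rescaled median of all genes in DoxTam against WT was 0.319, above each of these group medians. In DoxTam against Tam the serine and one-carbon enzymes came to 0.59 after rescaling, past the limit, and 1 member was lower with a pseudocount of 0.1 FPKM. Other ATF4 targets in that comparison turned to 0.0522 without a filter, 0.14 after rescaling and 0.0486 with the GC trend removed. Asparagine and proline synthesis turned to -0.12 in Tam and 0.0493 in DoxTam against Tam with a filter at 5 FPKM, which leaves out *Pycr1*. Apart from these constructions the cause was not tested. Genes of few fragments, such as *Gdf15*, *Atf3*, *Cebpb* and *Chac1*, have folds that counting error alone could move widely.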

Other observations

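The synthetase genes *Vars* and *Tarsl2* were not among the 19 cytosolic synthetases. *Vars*, which charges tRNA with valine, had 87.1 FPKM in WT, 54.9 FPKM in the Tam-labelled library and 52.5 FPKM in the DoxTam-labelled library, with log2 folds of -0.66 and -0.72, or -0.45 and -0.40 with the GC trend removed. It thus lay beside *Yars* among the lowest synthetases in both libraries as deposited, and inside 1.5-fold after that step. *Tarsl2*, a second threonyl synthetase gene, was low at 1.504, 1.07 and 1.22 FPKM.

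*Lars2* had a level far above the other mitochondrial synthetases, at 2461 FPKM in WT, out of 2675 FPKM summed over the 17 genes of that list. Its values in the Tam-labelled library and the DoxTam-labelled library were 2131 of 2312 FPKM and 1339 of 1527 FPKM. What these reads are was not tested.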
